A study of Mus musculus with 8 samples.

Results

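The genes *Cxcl12*, *Cxcl16*, *Vegfa* and *Mif* were taken by symbol from a quantitative PCR array for mouse cytokines and chemokines and followed through bulk liver in 8 conditions. They are 4 of the 84 cytokine and chemokine genes of the array, which also holds 5 housekeeping genes, and all 4 were detected in every condition. Rag1-KO mice (Rag1-/-) lack T and B cells. Rag1-Tbet-DKO mice, bred by crossing Rag1-/- with Tbx21-/- animals, are in addition without T-bet, on which type 1 innate lymphoid cells (ILC1s) depend, and keep conventional NK cells. Every group therefore lacked Rag1, and both deletions were constitutive, in all cells and not in 1 cell type. After IRI the paper found that Rag1-Tbet-DKO NK cells lacked the terminally mature stage and held less perforin than Rag1-/- ones. The genotype contrast is therefore not a loss of ILC1s alone. Mice of each genotype were fed for 12 to 15 weeks with a normal diet (ND) or one made rich in fat with lard (HFD). Liver was taken either without injury (non-IRI, laparotomy only) or after ischemia reperfusion injury (IRI), in which part of the warm liver was clamped for 45 minutes and reperfused for 24 hours. Mice of these genotypes were 17 to 19 weeks old in the study's other experiments. The age and sex of the array animals are not given in the sources used here. Tissue came from the left lobe after IRI but from the entire liver in controls, and this difference cannot be told apart from injury.

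For each condition RNA from at least 3 livers was pooled before cDNA synthesis, and each gene was read in 1 well of 1 pool. No replicate error exists, so no test was run, and the differences given are differences between pools. Injury, diet and genotype each gave 4 matched pairs of pools, for which an exact permutation test could not go below a two-sided p of 0.125. The pairs of different factors share pools, so their values are set side by side and not counted as independent. In bulk liver, fewer cells of a type and less RNA per cell cannot be told apart. The hepatocyte product *Hc* (complement C5) was read at a Ct of 14.78 to 16.74 and *Thpo* at 20.73 to 22.42. The adipocyte gene *Adipoq* and the muscle gene *Mstn* were each at the detection limit in 5 of 8 pools. For *Mstn* these included every Rag1-KO pool, and it was detected only in Rag1-Tbet-DKO pools. Its log2 differences of Rag1-Tbet-DKO over Rag1-KO liver were at least 1.91 and 4.81 on ND, without and with injury. On HFD after IRI the difference was at least 1.88. What part tissue content had in the genotype values was not tested. Ifng, a product of ILC1s and NK cells, was detected in all pools at 28.30 to 31.44. Against *Actb* and *Hsp90ab1*, its log2 differences of Rag1-Tbet-DKO over Rag1-KO liver were 1.27 and -0.17 on ND, without and with injury. On HFD they were -1.765 and -0.63. The medians over the 62 array genes detected in every pool were 0.91, 0.20, -0.835 and -0.11 in the same order. Rag1 and Tbx21 were not among the genes analysed here, so the genotype labels were not checked on them.

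These genes encode factors that liver tissue makes without an immune stimulus. CXCL12, a product of stromal and endothelial cells, binds CXCR4 and ACKR3 and retains leukocytes and progenitors in tissue. CXCL16 is anchored in the membrane of sinusoidal endothelial cells and macrophages, takes up oxidised lipoprotein, and as a shed chemokine binds CXCR6, a receptor of liver-resident NK T cells and ILC1s. VEGF-A keeps the sinusoidal endothelium fenestrated and is a classical target of hypoxia-inducible factor (HIF). MIF is stored ready-made in many cell types, including hepatocytes, and binds CD74, CXCR2 and CXCR4.

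The start regions of *Cxcl12*, *Vegfa* and *Mif* are shown because such GC-rich starts are a known feature of broadly expressed genes. Each stretch runs 5′ to 3′ on the strand of the gene, from 90 bases before to 30 bases after the RefSeq start in GRCm38.p6. Capitals mark the GC box GGGCGG or its reverse complement CCGCCC, the core bound by SP1 family factors. They lie at chr6:117168445-117168564 (*Cxcl12*, plus strand), chr17:46032348-46032467 (*Vegfa*, minus strand) and chr10:75860248-75860367 (*Mif*, minus strand).
Cxcl12: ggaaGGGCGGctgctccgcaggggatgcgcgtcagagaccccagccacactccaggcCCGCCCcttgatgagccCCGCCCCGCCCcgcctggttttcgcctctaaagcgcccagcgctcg
Vegfa: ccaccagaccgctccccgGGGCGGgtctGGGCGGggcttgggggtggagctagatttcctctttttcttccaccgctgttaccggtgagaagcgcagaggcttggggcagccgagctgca
Mif: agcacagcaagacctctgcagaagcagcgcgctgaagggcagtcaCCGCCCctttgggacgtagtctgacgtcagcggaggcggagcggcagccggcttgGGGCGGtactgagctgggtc
All 3 held at least 1 GC box, as did 35.7% of 32851 promoter windows of 300 bases. The HIF core ACGTG was searched on both strands of the same windows and occurs in 19.6% of all of them. Of the 3 genes only *Mif* held it within its window, as CACGT from base 30 after the start. Sequence outside the windows was not searched, and none was available here for *Cxcl16*. Neither motif is itself a measurement of factor binding. A pair of GC boxes of *Cxcl12* share a base (CCGCCCCGCCC), and none overlaps a HIF core.

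Abundance was read as the threshold cycle (Ct), the PCR cycle at which product is detected, so that a Ct lower by 1 stands for about 2-fold more RNA. The limit was a Ct of 35, and the 4 genes were read between 15.76 and 22.44, far below it. Levels are given as -dCt, the mean Ct of *Actb* and *Hsp90ab1* in the pool minus the Ct of the gene, on a log2 scale, so a higher value is a higher level. The mean Ct of *Actb* and *Hsp90ab1* ranged from 15.040 (ND Rag1-Tbet-DKO non-IRI) to 16.460 (ND Rag1-Tbet-DKO IRI). The number of genes at the limit was 6 to 17 per pool, and 2 genes, neither of them studied here, had a Ct below 12 in the ND Rag1-Tbet-DKO non-IRI pool and in no other.

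The level of *Cxcl12* in Rag1-KO liver was -2.84 on ND without injury, -1.58 on ND after IRI, -1.51 on HFD without injury and -1.645 on HFD after IRI. In Rag1-Tbet-DKO liver it was -1.63, -1.98, -1.945 and -1.735 in the same order. The ND Rag1-KO non-IRI pool stood 0.86 below the next pool, while the other 7 pools lay within 0.47 of each other, a 1.39-fold range. For *Cxcl16* the Rag1-KO levels were -6.86, -6.07, -5.38 and -5.645, and the Rag1-Tbet-DKO levels -5.95, -5.82, -6.335 and -5.835, in that order of conditions. The HFD Rag1-KO pools were the highest for *Cxcl16*, and the ND Rag1-KO non-IRI pool was again the lowest, 0.525 below the next.

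*Vegfa* levels were -3.21, -2.21, -2.85 and -2.895 in Rag1-KO liver and -2.76, -2.80, -3.155 and -2.805 in Rag1-Tbet-DKO liver. One pool was apart, ND Rag1-KO IRI, which stood 0.55 above the next, and neighbouring pools in the rest of the order were 0.26 apart or less. *Mif* levels were -1.37, -0.75, -0.99 and -1.415 in Rag1-KO liver and -0.72, -1.30, -1.315 and -1.775 in Rag1-Tbet-DKO liver. *Mif* differed from the other genes in that HFD Rag1-Tbet-DKO IRI liver had the lowest level, 0.36 below the next, and ND Rag1-Tbet-DKO non-IRI liver the highest. With 1 well per pool, none of these orders can be set against a spread.

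**Figure D1:**
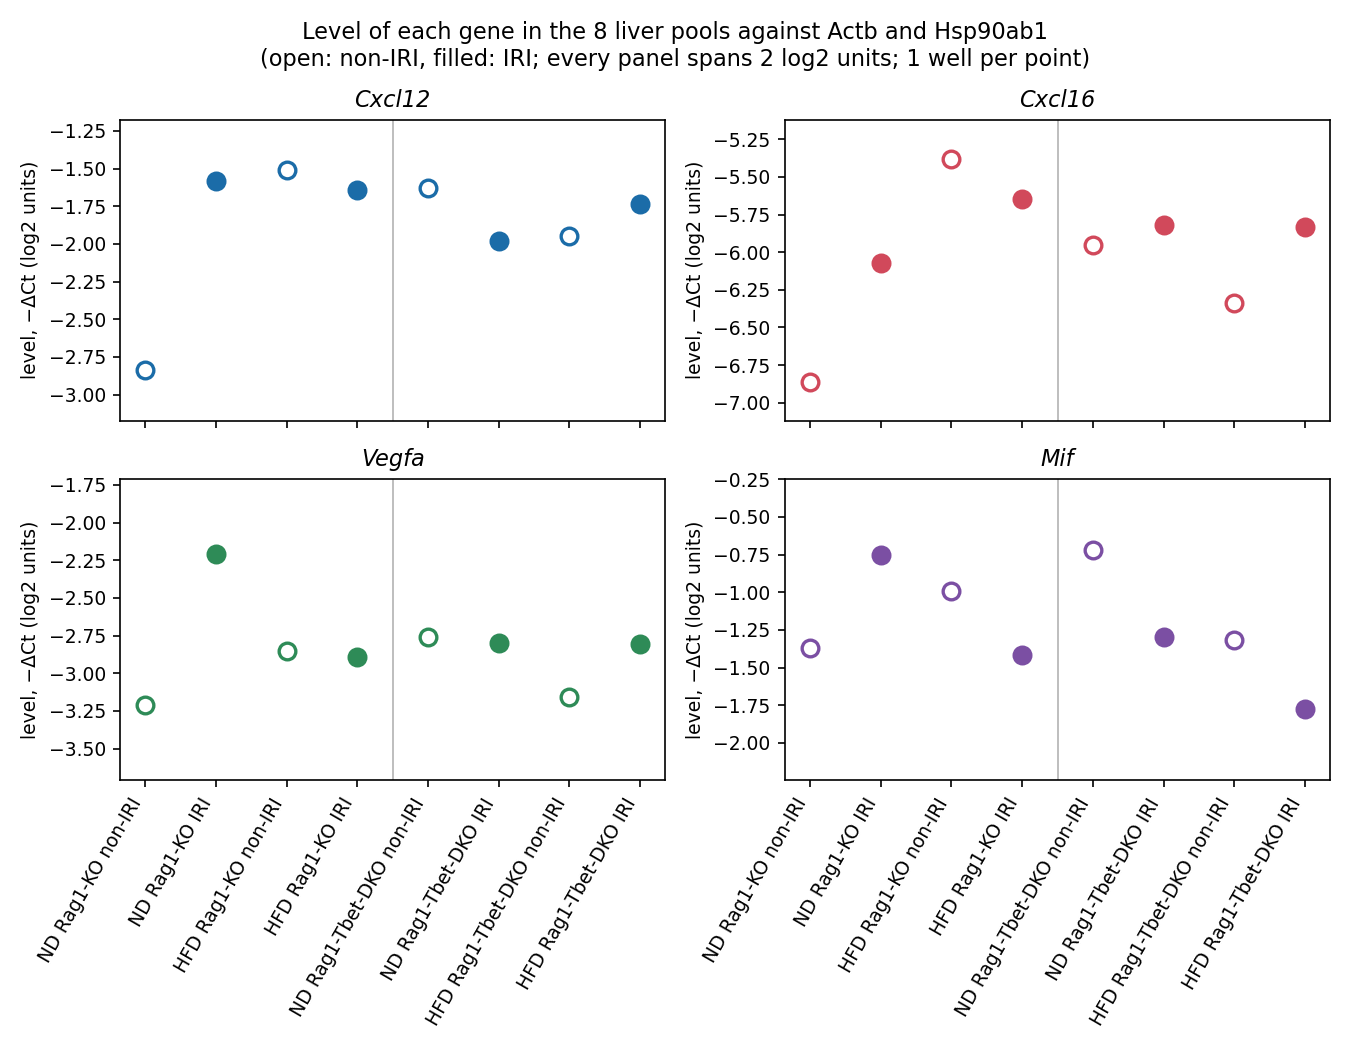
Level of each gene (-dCt against Actb and Hsp90ab1, log2 units) in the 8 pools, with open circles for non-IRI and filled circles for IRI pools, 1 well per point, each panel spanning 2 log2 units. The ND Rag1-KO non-IRI pool is lowest for Cxcl12 (-2.84), Cxcl16 (-6.86) and Vegfa (-3.21), whereas Mif is lowest in HFD Rag1-Tbet-DKO IRI liver (-1.775).

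The genes varied little across the 8 pools. The distance between the highest and the lowest pool was 2-fold for *Vegfa*, 2.08-fold for *Mif*, 2.51-fold for *Cxcl12* and 2.79-fold for *Cxcl16*. Among the 62 array genes that stayed below the limit in every pool, 1 gene had a smaller range than *Vegfa*, 3 than *Mif*, 10 than *Cxcl12* and 14 than *Cxcl16*, and the median range of the 62 was 2.865 on the log2 scale. The 4 genes were also more abundant than most of the 62, whose median Ct was 23.93 to 26.21 per pool. Other genes read at low Ct differed in range. The levels of *Gapdh* lay between -0.29 and 0.655 and those of *Gpi1* between -3.11 and -2.35, while *Hc* had a log2 difference of 1.42 between genotypes on ND without injury. Whether a low Ct itself goes with a small range was not tested. Another scaling gave another order. With the median Ct of the 62 genes as reference, *Mif* spanned 4.42-fold, with 27 of 62 genes below it, and *Cxcl16* spanned 2.14-fold, with 3 below it.

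After injury, 2 of the 16 values of these genes (4 genes in 4 pairs) were at least 2-fold higher and 0 were at least 2-fold lower. Both came from ND Rag1-KO liver, where *Cxcl12* was 2.39-fold higher after IRI (Ct 18.42 without and 17.39 with injury) and *Vegfa* 2-fold higher (18.79 and 18.02), exactly on the threshold. In that comparison 50.7% of the 75 array genes with a value were at least 2-fold higher and 5.33% at least 2-fold lower, and the median log2 fold of the 62 genes was 0.97. *Cxcl16* was 1.73-fold and *Mif* 1.54-fold higher there. So the 4 genes, with a median log2 fold of 0.895, moved about as much as the array did.

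In the other 3 pairs none of the 4 genes reached 2-fold after IRI. The share of array genes at least 2-fold higher was 10.4% in HFD Rag1-KO, 50% in ND Rag1-Tbet-DKO and 55.8% in HFD Rag1-Tbet-DKO liver, and the share at least 2-fold lower was 15.6%, 11.2% and 5.19%. *Vegfa*, the hypoxia-inducible growth factor, was 1.03-fold lower in the first of these, 1.03-fold lower in the second and 1.27-fold higher in the third. *Cxcl12* was 1.1-fold lower, 1.27-fold lower and 1.16-fold higher in the same order, and *Cxcl16* was 1.2-fold lower, 1.09-fold higher and 1.41-fold higher. *Mif* was lower in all 3, by 1.34-fold, 1.49-fold and 1.38-fold. In both Rag1-Tbet-DKO pairs the median log2 fold of the 4 genes (-0.195 on ND, 0.28 on HFD) was below that of the array (0.405 and 0.705).

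The 3 housekeeping genes not used as reference give a yardstick, but not a measure of technical error, since each was read in 1 well per pool. In ND Rag1-KO liver *B2m*, *Gapdh* and *Gusb* had log2 folds of 0.57 to 0.72 after IRI, so they rose with the genes of interest, and in the other pairs they lay between -0.82 and 0.195. With all 5 housekeeping genes or with *Gusb* and *B2m* as references, 0 of the 16 values were 2-fold higher, and without the ND Rag1-KO non-IRI pool there were also 0, of 12. With *Actb*, *Hsp90ab1* and *Gapdh*, which the methods name for Rag1-KO folds, the *Cxcl12* and *Vegfa* log2 folds in ND Rag1-KO liver were 1.03 and 0.77. With *Nodal*, *Il9* and *Csf1*, which the methods name for Rag1-Tbet-DKO folds, they were -0.20 and -0.46. With these 3 genes, 8 of the 16 values were at least 2-fold lower. Against *Actb* and *Hsp90ab1*, *Nodal*, *Il9* and *Csf1* themselves had log2 folds of 2.02, 1.91 and 0.45 after IRI in ND Rag1-KO liver.

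**Figure D2:**
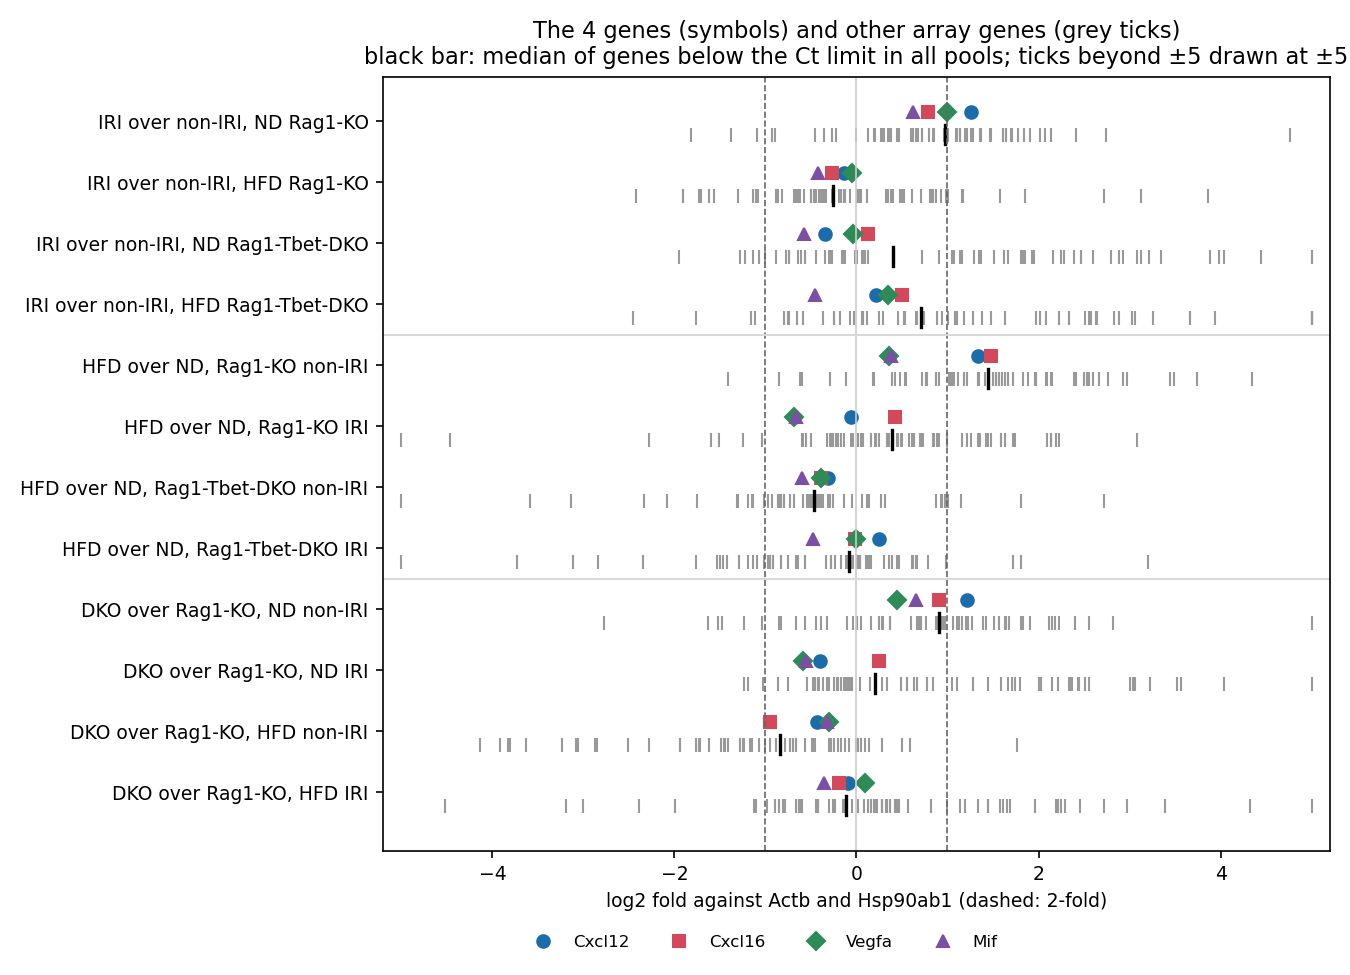
Log2 fold against Actb and Hsp90ab1 in each of the 12 comparisons for the 4 genes (coloured symbols) and the other array genes with a value in both pools (grey ticks), with the median of the 62 genes detected in every pool as a black bar and 2-fold as dashed lines (ticks beyond 5 either way are drawn at the edge). The symbols stay within 2-fold in all but 3 comparisons, each of which has the ND Rag1-KO non-IRI pool as baseline.

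Between diets, 2 of the 16 values were at least 2-fold higher on HFD and 0 at least 2-fold lower. In Rag1-KO liver without injury, *Cxcl16* was 2.79-fold higher on HFD than on ND (Ct 20.60 and 22.44) and *Cxcl12* 2.51-fold higher (16.73 and 18.42), 2 of the 4 genes at a background of 71.4% of 77 array genes higher and 1.3% lower. *Vegfa* (1.28-fold) and *Mif* (1.3-fold) were higher by less, and 54 of the 62 array genes had a larger log2 fold than *Vegfa* and 53 a larger one than *Mif*. The array median was 1.445 there, so that *Cxcl16* was 0.035 above and *Cxcl12* 0.115 below the array as a whole, and *B2m*, *Gapdh* and *Gusb* had log2 folds of 0.64 to 1.13.

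In the remaining diet comparisons 0 of the 4 genes reached 2-fold. After IRI in Rag1-KO liver, where 28.6% of array genes were higher and 11.7% lower on HFD, *Vegfa* was 1.61-fold and *Mif* 1.59-fold lower, *Cxcl12* 1.05-fold lower and *Cxcl16* 1.34-fold higher. Only 5 of the 62 genes had a lower log2 fold than *Vegfa* in that comparison and 6 a lower one than *Mif*. In Rag1-Tbet-DKO liver without injury (6.33% higher, 29.1% lower) all 4 genes were lower on HFD, between 1.24-fold (*Cxcl12*) and 1.51-fold (*Mif*). After IRI in Rag1-Tbet-DKO liver (8.75% higher, 22.5% lower) *Mif* was 1.39-fold lower and *Cxcl12* 1.19-fold higher, while *Cxcl16* and *Vegfa* differed by 1.01-fold or less. Scaled to the median Ct of those 62 genes, the log2 folds of *Cxcl16* and *Cxcl12* in uninjured Rag1-KO liver turned to -0.44 and -0.59. With *Gusb* and *B2m* they were 0.495 and 0.345, below 2-fold.

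Between genotypes, 1 of 16 values passed 2-fold. On ND without injury *Cxcl12* was 2.31-fold higher in Rag1-Tbet-DKO than in Rag1-KO liver (Ct 16.67 and 18.42), against a background of 45.6% of 79 array genes higher and 8.86% lower. *Cxcl16* (1.88-fold), *Mif* (1.57-fold) and *Vegfa* (1.37-fold) were also higher there, and so were *B2m*, *Gapdh* and *Gusb*, with log2 folds of 0.85 to 1.12. On HFD without injury, where 1.3% of array genes were higher and 54.5% lower, *Cxcl16* was 1.94-fold lower in Rag1-Tbet-DKO liver (21.84 and 20.60), just inside the threshold, and the other genes were 1.24-fold to 1.35-fold lower.

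After IRI the genotypes were closer for *Cxcl16*, the ligand of the receptor that ILC1s carry, and so they were for the array as a whole. The array median log2 difference was 0.91 on ND and -0.835 on HFD without injury, and 0.20 and -0.11 after IRI. *Cxcl16* was then 1.19-fold higher in Rag1-Tbet-DKO liver on ND and 1.14-fold lower on HFD. The array shares higher and lower were 42.5% and 8.75% for ND, and 30.8% and 11.5% for HFD. *Vegfa* was 1.51-fold lower on ND and 1.06-fold higher on HFD, *Mif* 1.46-fold and 1.28-fold lower, and *Cxcl12* 1.32-fold and 1.06-fold lower. For *Vegfa* on ND, 56 of the 62 genes had a higher log2 fold. With *Gusb* and *B2m* as references the *Cxcl12* difference on ND without injury had a log2 value of 0.09, and scaled to the median Ct of the 62 genes it was -0.315.

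**Figure D3:**
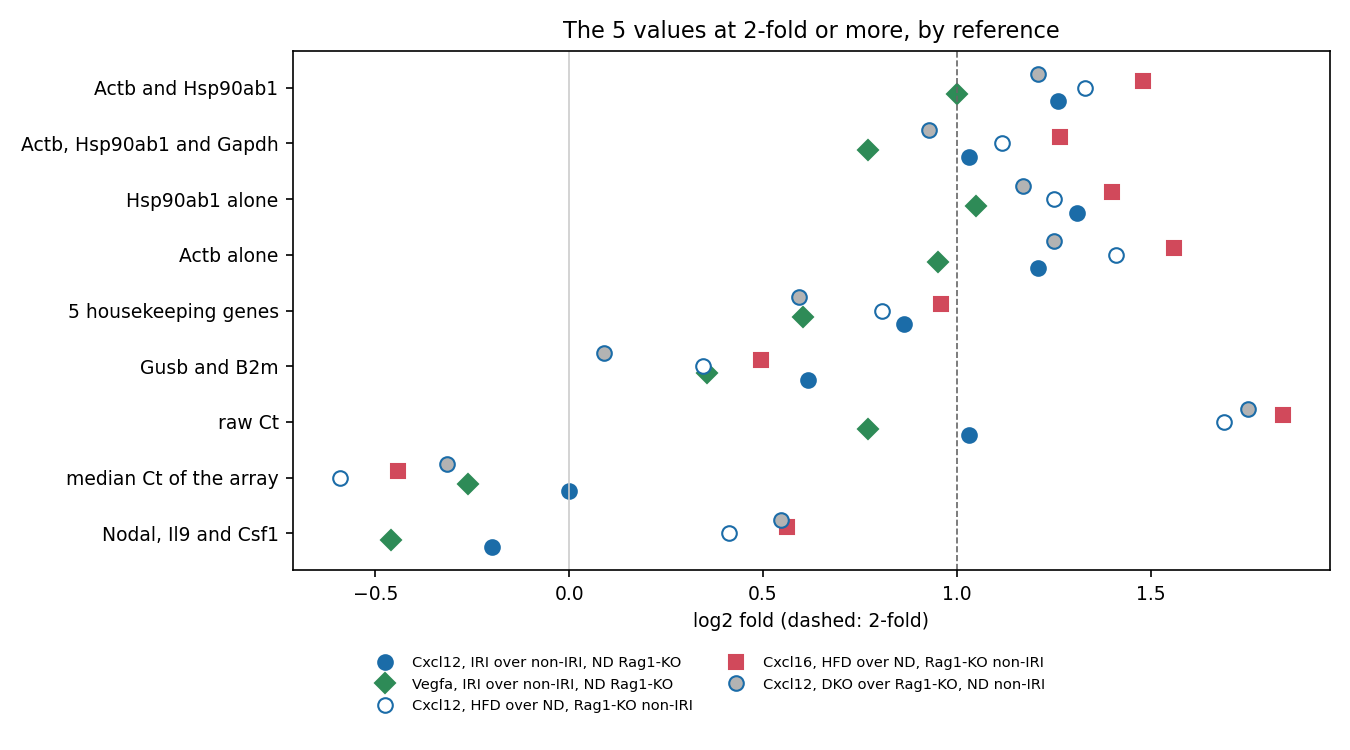
Log2 fold (x axis) of the 5 values that reached 2-fold with Actb and Hsp90ab1, under each set of references (y axis), with 2-fold as a dashed line. The 5 values lie between 1.00 and 1.48 in the top row and between -0.59 and 0.00 in the row for the median Ct of the array.

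All 5 values at 2-fold or more have the ND Rag1-KO non-IRI pool as their baseline. In that pool the levels of *B2m* and *Gapdh* were also the lowest of the 8 (1.56 and -0.29), as was that of *Gusb* (-5.63). What part the reference genes of this pool had in the 5 values was not tested.

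Differences between the 4 genes need no reference gene, since any reference is subtracted from both. After IRI, *Mif* fell behind *Cxcl12*, *Cxcl16* and *Vegfa* in 4 of 4 pairs each. The ratio of *Mif* to *Vegfa* changed by a mean log2 value of -0.528 ± 0.203 (SD, n = 4 pairs), that of *Mif* to *Cxcl12* by -0.458 ± 0.23 and that of *Mif* to *Cxcl16* by -0.50 ± 0.40. The Ct of *Vegfa* minus that of *Mif* was 1.84, 1.86, 2.04 and 1.84 in the non-IRI pools (ND and HFD Rag1-KO, then ND and HFD Rag1-Tbet-DKO) and 1.46, 1.48, 1.5 and 1.03 in the IRI pools. For *Vegfa* the non-IRI and IRI values did not overlap, which was so for 3.28% of the 61 genes set against *Mif* (2 genes, *Vegfa* being 1). They overlapped for *Cxcl12* (0.52 to 1.47 in non-IRI and -0.04 to 0.83 in IRI pools) and for *Cxcl16* (4.39 to 5.49 and 4.06 to 5.32). Against this stands the rest of the array, of which 25 of 61 genes (41%, these 3 included) gained on *Mif* in all 4 pairs, while 3 genes lost on it in all 4.

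**Figure D4:**
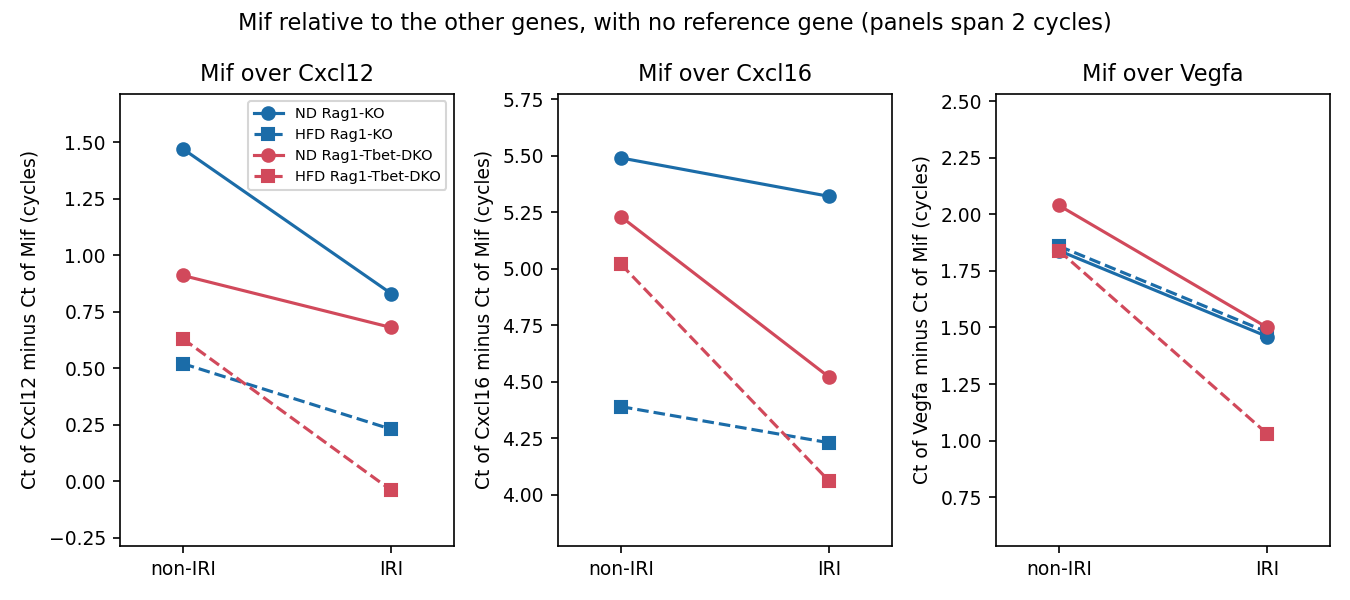
Ct of Cxcl12, Cxcl16 or Vegfa minus the Ct of Mif (cycles, equal to the log2 ratio of Mif to that gene apart from a constant) in non-IRI and IRI pools, with 1 line per diet and genotype. All 12 lines fall, from 1.84 to 2.04 down to 1.03 to 1.5 for Vegfa.

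The diet gave a related order. On HFD, *Mif* was lower relative to *Cxcl12* in 4 of 4 pairs (mean log2 change -0.637 ± 0.279) and relative to *Cxcl16* in 4 of 4 (-0.715 ± 0.451), but relative to *Vegfa* in 2 of 4 (-0.158 ± 0.233). *Vegfa* was likewise lower on HFD relative to *Cxcl12* in 4 of 4 pairs (-0.48 ± 0.397), as 10 of the 61 genes besides *Cxcl12* were (16.4%, *Vegfa* and *Mif* included). So on HFD the chemokines *Cxcl12* and *Cxcl16* were higher relative to *Mif*, while 41% of the other 61 array genes also gained on *Mif* in all 4 pairs. Between genotypes none of the 6 gene pairs changed one way in 4 of 4 pairs.

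Against *Actb* and *Hsp90ab1*, and without the ND Rag1-KO non-IRI pool, *Mif* was lower in all 3 remaining pairs of each factor. The mean log2 difference was -0.488 ± 0.081 (SD, n = 3 pairs) after IRI, -0.578 ± 0.096 on HFD and -0.412 ± 0.121 in Rag1-Tbet-DKO liver. Of the 62 array genes, 19.4%, 17.7% and 30.6% were lower in all 3 pairs of the respective factor (29%, 9.68% and 1.61% higher), among them *Vegfa* for diet and *Cxcl12* for genotype. These pairs share pools, and leaving that pool out was chosen after its values were seen. With that pool, *Mif* was higher in 1 of 4 and lower in 3 of 4 pairs for every factor (-0.211 ± 0.558, -0.339 ± 0.486 and -0.146 ± 0.54). *B2m*, the housekeeping gene of MHC class I, moved alike after IRI (-0.518 ± 0.266 in the 3 pairs). For diet and genotype the single sign depended on the reference, and after IRI the size did. The log2 folds of *Mif* after IRI in the same 3 pairs were 0.00, -0.145 and -0.18 with *Gusb* and *B2m*. Scaled to the median Ct of the 62 genes they were -0.215, -1.095 and -1.77. With *Gusb* and *B2m* the genotype difference of *Mif* on HFD without injury was 0.025. With the median Ct of the 62 genes, *Mif* was higher by 0.50 on HFD in uninjured Rag1-Tbet-DKO liver and by 1.165 in Rag1-Tbet-DKO liver on HFD without injury.

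The genes with the most similar pattern over the 8 pools were found by the standard deviation of their Ct difference, again with no reference gene. Nearest to *Cxcl12* were *Cntf* (0.159 cycles), *Ctf1* (0.185) and *Tnfrsf11b* (0.229), which encode a pair of IL-6 family cytokines and osteoprotegerin. Nearest to *Cxcl16* were *Tnfsf13b* (0.231), the B cell survival factor BAFF, then *Cxcl12* (0.243) and *Ctf1* (0.261). *Gpi1*, a glycolytic enzyme that also acts as a secreted cytokine, was nearest to both *Vegfa* (0.254) and *Mif* (0.259), followed by *Actb* (0.293) and *Tnfrsf11b* (0.30) for *Vegfa* and by *B2m* (0.271) and *Bmp2* (0.305) for *Mif*. The median over the 66 genes compared was 0.748 to 0.939 cycles. Among the members themselves the closest pair was *Cxcl16* and *Cxcl12*, and the most distant was *Mif* and *Cxcl16* (0.547).

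Related genes of the array give the setting. Of 5 HIF-1 targets and glycolytic genes, *Vegfa*, *Mif* and *Cxcl12* are studied here, so only *Gapdh* and *Gpi1* add to them. Of the 5 only *Cxcl12* and *Vegfa* reached 2-fold after IRI, both in ND Rag1-KO liver, where 50.7% of array genes were at least 2-fold higher. The list median log2 fold was 0.69 there, against an array median of 0.97, and -0.135, -0.35 and -0.07 in the other 3 pairs. After IRI *Gapdh* had log2 folds of 0.69, 0.195, -0.44 and -0.33, and *Gpi1* of 0.68, -0.135, -0.30 and -0.07. The 4 ligands of CXCR2, a receptor that MIF shares, had larger values. All 4 were at least 2-fold higher after IRI in both Rag1-Tbet-DKO pairs, where 50% (ND) and 55.8% (HFD) of array genes were. Their median log2 fold was 3.46 on ND and 3.545 on HFD, against array medians of 0.405 and 0.705. In ND Rag1-KO liver 2 of the 3 with a value were at least 2-fold higher (array share 50.7%), and in HFD Rag1-KO liver 1 of 4 (10.4%). *Cxcl5*, a neutrophil chemokine, had log2 folds of 1.14, 0.325, 5.10 and 5.01, and *Cxcl3* had 3.865, 10.20 and 9.41 in the 3 pairs in which it had a value.

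Of the 5 other CXC chemokines without the ELR motif, the class to which *Cxcl12* belongs, 2, 0, 1 and 2 were at least 2-fold higher after IRI (ND and HFD Rag1-KO, then ND and HFD Rag1-Tbet-DKO) and 1 was lower in each pair. The array shares were 50.7%, 10.4%, 50% and 55.8% higher, and 5.33%, 15.6%, 11.2% and 5.19% lower. The interferon-induced ligands of CXCR3 differed among themselves. *Cxcl9* had log2 folds of -0.46, -1.105, -1.95 and -1.16 in that order, *Cxcl10* of -1.09, 0.345, -0.77 and 2.83, and *Cxcl11* of 1.84, -0.495, -0.74 and -0.80. The platelet chemokine *Pf4* was higher in Rag1-Tbet-DKO than in Rag1-KO liver by log2 values of 1.81 and 3.22 on ND and 0.095 and 2.21 on HFD, without and with injury. The corresponding values of *Ppbp*, the other platelet gene, were 2.22 and 2.43 on ND and -1.175 and 0.42 on HFD. *Pf4* and *Ppbp* were both at least 2-fold higher after IRI in Rag1-Tbet-DKO liver on ND (median log2 fold 1.72) and on HFD (2.305). So were 50% and 55.8% of array genes. *Ppbp* is also counted among the CXCR2 ligands and *Pf4* among the chemokines without ELR. The part of *Pf4* and *Ppbp* in the values of the 4 genes was not tested. Of *Bmp2*, *Bmp4* and *Bmp6*, ligands that sinusoidal and stellate cells make as they do *Cxcl12*, 0 of 3 were at least 2-fold changed after IRI in ND Rag1-KO liver (median log2 fold 0.35), where *Cxcl12* was 2.39-fold higher. The array median was 0.97 there, with 50.7% of array genes higher and 5.33% lower. In HFD Rag1-KO liver 1 of 3, *Bmp4*, was lower (log2 fold -1.905, list median -0.625, array share lower 15.6%), and *Cxcl12* was 1.1-fold lower. Among Rag1-Tbet-DKO livers, 3 of 3 were lower on ND (median -1.14, array share 11.2%), and *Cxcl12* was 1.27-fold lower. On HFD 0 of 3 were changed (median -0.59, array median 0.705, array shares 55.8% higher and 5.19% lower), and *Cxcl12* was 1.16-fold higher.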

How the data were processed

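Per the labels, RNA of at least 3 livers was pooled in equal parts, 1.25 µg was made into cDNA, and an RT2 Profiler array was run for 40 cycles with SYBR Green. The authors deposited a table of Ct values (a score, 1 per well and pool), a table of normalized values (a ratio, 2 to the power of -dCt) and a table of their own folds, which was not used.

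For the 4 genes, the deposited normalized ratio of Rag1-KO pools was recomputed from Actb, Hsp90ab1 and Gapdh within 0.00647 cycles. That of Rag1-Tbet-DKO pools differed by 0.872 to 1.18 cycles from a ratio to Nodal, Il9 and Csf1, as in the methods, and by at most 0.00745 cycles once Ccl22 and Fasl were added. The deposited ratio was therefore not compared between genotypes.

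Here dCt was taken from the Ct values against the mean of Actb and Hsp90ab1, the references the methods name for levels, and the log2 fold is the difference in -dCt. A gene at a Ct of 35 in 1 pool got a bound, and in both no fold. The threshold for calling a difference was 2-fold, without a test. The computation was tested on simulated data. All 4 RefSeq identifiers carried the same symbol in GRCm38.p6, and promoter sequences are those of RefSeq. Genes besides the 4 were named by the likeness of their Ct, or as list members at least 2-fold changed in 3 or 4 pairs of a factor, up to 2 per list, together with housekeeping, marker and list genes. Bmp4, Ppbp, Cxcl10, Cxcl11 and Gpi1 were given values after these were seen, as were the log2 differences of Ifng and Hc. The members and lists were chosen with earlier results of these data known. Alternatives were other references, raw Ct, a Ct limit of 32, a 3-fold threshold and the deposited ratios, and leaving out each pool was added after the data were seen. Scripts ran under Python 3.11.15 with matplotlib 3.10.9, pandas 2.3.3 and numpy 2.4.6.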

Additional observations from a re-analysis of the deposited data

Results flagged for a closer look

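Cxcl16 went in opposite directions by diet in the 2 genotypes, with log2 folds on HFD of 1.48 (non-IRI) and 0.425 (IRI) in Rag1-KO liver and of -0.385 and -0.015 in Rag1-Tbet-DKO liver. Put the other way, its log2 difference of Rag1-Tbet-DKO over Rag1-KO liver was 0.91 and 0.25 on ND and -0.955 and -0.19 on HFD. The array as a whole had the same pattern, with median log2 folds over 62 genes of 1.445, 0.39, -0.47 and -0.08 for diet and of 0.91, 0.20, -0.835 and -0.11 for genotype. Both statements come from the same 8 wells, the difference between genotypes was not tested, and 1 of the values (-0.015) is close to 0. With Gusb and B2m as references the Rag1-Tbet-DKO values on HFD were 0.10 and 0.315, and scaled to the median Ct of the 62 genes detected in every pool all 4 diet values changed sign, to -0.44, -0.025, 0.71 and 0.285.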

How the results depend on the processing

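The counts of values at 2-fold out of 16 per factor (higher, lower) were 2 and 0 for injury, 2 and 0 for diet and 1 and 0 for genotype. After injury the count higher was 1 with Actb, Hsp90ab1 and Gapdh, with Actb alone, with raw Ct and with the deposited ratios, and 0 with 5 housekeeping genes, Nodal, Il9 and Csf1, Gusb and B2m, the median Ct of the array or a 3-fold threshold, while the count lower was 8 with Nodal, Il9 and Csf1, 3 with the median Ct, 5 with raw Ct and 5 with the deposited ratios. For diet the count higher was 0 with 5 housekeeping genes, Nodal, Il9 and Csf1, Gusb and B2m, the median Ct or the 3-fold threshold, and the count lower was 3 with Nodal, Il9 and Csf1, 4 with the median Ct and 1 with raw Ct. Raw Ct also put Cxcl12 above 2-fold on HFD in Rag1-Tbet-DKO liver after IRI (log2 fold 1.04), beside the 2 values in uninjured Rag1-KO liver. For genotype the count higher was 0 with Actb, Hsp90ab1 and Gapdh, 5 housekeeping genes, Nodal, Il9 and Csf1, Gusb and B2m or the 3-fold threshold and 3 with the median Ct or raw Ct, and the count lower was 1 with Actb, Hsp90ab1 and Gapdh or Hsp90ab1 alone, 3 with Nodal, Il9 and Csf1, 4 with the median Ct and 4 with raw Ct. A Ct limit of 32 changed none of the counts. Without the ND Rag1-KO non-IRI pool, a choice made after seeing the data, the count higher was 0 for every factor, as it was without the ND Rag1-KO IRI pool for injury, the HFD Rag1-KO non-IRI pool for diet and the ND Rag1-Tbet-DKO non-IRI pool for genotype. Reversed values were, with Nodal, Il9 and Csf1, -0.20 (Cxcl12) and -0.46 (Vegfa) after IRI in ND Rag1-KO liver, and, with the median Ct, -0.26 (Vegfa) in that comparison, -0.59 (Cxcl12) and -0.44 (Cxcl16) for HFD in uninjured Rag1-KO liver and -0.315 (Cxcl12) between genotypes on ND without injury. A reference adds 1 constant to all genes of a comparison, so these shifts follow from the choice of reference, and which reference is closest to equal RNA input was not tested. The deposited ratios gave no value between genotypes. With the largest deviation in place of the SD, 3 of the 3 nearest genes were the same for Mif and 2 of 3 for each other member. Pools were matched by condition throughout, and no fit with a replicate number as a block could be made, since each condition has 1 pool.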
